A study of Mus musculus with 4 samples.

Results

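The vomeronasal receptor genes described here are the autosomal genes that the array's design names with the prefixes V1r, V2r, Vmn1r or Vmn2r, leaving out control spots. The rule found 73 genes, of which 51 belong to the V1r family and 22 to the V2r family, among 20445 autosomal genes measured. They are covered by 82 of 52385 autosomal probes, and 67 of the 73 rest on 1 probe each. Genomic DNA from 4 samples labelled as liver cells, all of 1 genotype, TAK1LPC-KO_RIP3-_-, was measured by array comparative genomic hybridisation (array CGH), in which 2 DNAs labelled in different colours bind side by side to short probes and the ratio of their signals tracks relative copy number. The study's title describes the genotype as liver parenchymal cells deficient in the kinase TAK1, combined with loss of the necroptosis kinase RIP3. The DNA came from formalin-fixed, paraffin-embedded (FFPE) sections. Each sample was labelled with Cy5 and set against 1 common pool of 4 normal livers labelled with Cy3. The Cre driver, the age of the animals, the strain and whether the 4 samples were separate animals are not given in the sources used here. The p-values given here therefore cover the spread among the 4 arrays alone, which may be technical. No control sample was hybridised on its own, so the ratios are tested against 0 and leave out the spread between normal livers. Slide 1 carried replicates 1 and 2, slide 2 carried replicates 3 and 4, and no dyes were swapped.

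Vomeronasal receptors are G protein-coupled receptors of the sensory neurons of the vomeronasal organ, where they detect pheromones and other chemical signals. V1r receptors sit in apical neurons with the G protein subunit encoded by Gnai2, and each has its coding sequence in a single exon. V2r receptors sit in basal neurons with the subunit encoded by Gnao1, and they carry a long extracellular domain built from several exons. Both families have grown by local duplication, so their genes lie in clusters of like sequence, many beside pseudogenes, and the families vary in content between rodent genomes. Liver does not use these receptors. The measurement is of DNA, so it says nothing on expression, and markers of liver cells cannot be checked in it. In the RefSeq table of assembly GRCm38.p6, used for names only, 71 of the 73 names are symbols, all of protein-coding genes, and the table holds 645 Vmn1r and Vmn2r entries of which 355 are protein coding. Vmn2r68-ps is a synonym of Vmn2r68 there, and V1rd18 was not matched.

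Because most members rest on 1 probe, the probe is the measured item. The probes of 8 members are printed as deposited, 5′ to 3′, with their longest run of A and T in capitals. Vmn2r84 and Vmn2r87 are neighbours with opposite ratios. Vmn1r66 and Vmn1r237 had high ratios, and Vmn2r103 and Vmn1r195 low ones. Vmn1r231 was dim in the samples and Vmn2r118 dim in both channels.
Vmn2r84: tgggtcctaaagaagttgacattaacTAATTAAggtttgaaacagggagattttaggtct
Vmn2r87: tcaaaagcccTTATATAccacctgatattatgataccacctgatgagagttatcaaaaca
Vmn1r66: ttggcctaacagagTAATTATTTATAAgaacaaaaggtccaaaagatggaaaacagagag
Vmn1r237: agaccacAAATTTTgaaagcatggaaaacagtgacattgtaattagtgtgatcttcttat
Vmn2r103: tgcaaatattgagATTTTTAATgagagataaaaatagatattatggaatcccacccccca
Vmn1r195: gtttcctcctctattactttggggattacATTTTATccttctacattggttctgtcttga
Vmn1r231: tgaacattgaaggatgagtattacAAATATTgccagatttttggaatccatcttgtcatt
Vmn2r118: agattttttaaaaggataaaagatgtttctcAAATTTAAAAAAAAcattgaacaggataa
All positions use the mm9 build of the file headers. The strand, and whether a probe lies in an exon, an intron or a UTR, are not given in the sources used here. Member probes were 52 to 60 nt long with a GC content of 34.4% ± 4.29 (SD over 82 probes), against 36.3% ± 3.63 over all autosomal probes. The median longest run of A and T was 7 nt in both.

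Over the family as a whole, more genes lay above the pool than below it. By limma with Benjamini-Hochberg adjustment over all 20445 genes, 23 members (31.5%) were higher and 5 (6.85%) lower, where a call needs an adjusted p under 0.05 and a mean log2 ratio at least 0.25 from 0. Over all genes 16.1% were called higher and 19.3% lower. Genes with 1 probe, a background chosen after the data were seen, gave 18.4% and 23.4%. At a size limit of 0.5, 6 members were higher (4.63% of all genes) and 4 lower (7.02%). Of V1r genes 16 of 51 were higher and 2 lower, and of V2r genes 7 of 22 were higher and 3 lower. These counts against their background were not tested. A call here says that a ratio was steady over 4 arrays, since the dye and the pool are in every ratio.

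Both families had like medians. The median log2 ratio over the 73 members was 0.12, 0.15, 0.09 and 0.20 on replicates 1 to 4, a mean of 0.14 ± 0.04 (SD, n = 4), beside -0.01 ± 0.006 for all genes. The V1r median was 0.13 ± 0.03 and the V2r median 0.14 ± 0.11. Of the 73 members 29 (39.7%) lay above 0 on all 4 arrays, against 26.1% of all genes, 7 (9.59%) lay below 0 on all 4, against 28.4%, and 37 took both signs. The SD of a member over arrays had a median of 0.20, against 0.16 for all genes. Among genes with 1 probe, as most members are, the medians were 0.20 for members and 0.19 for all genes. Between pairs of arrays the 73 ratios correlated at 0.37 to 0.71, while all genes gave 0.64 to 0.73. Only 8677 of all 20445 genes rest on 1 probe, so these 2 ranges are not like for like. These are correlations across genes, which share the pool and the probe on every array.

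**Figure D1:**
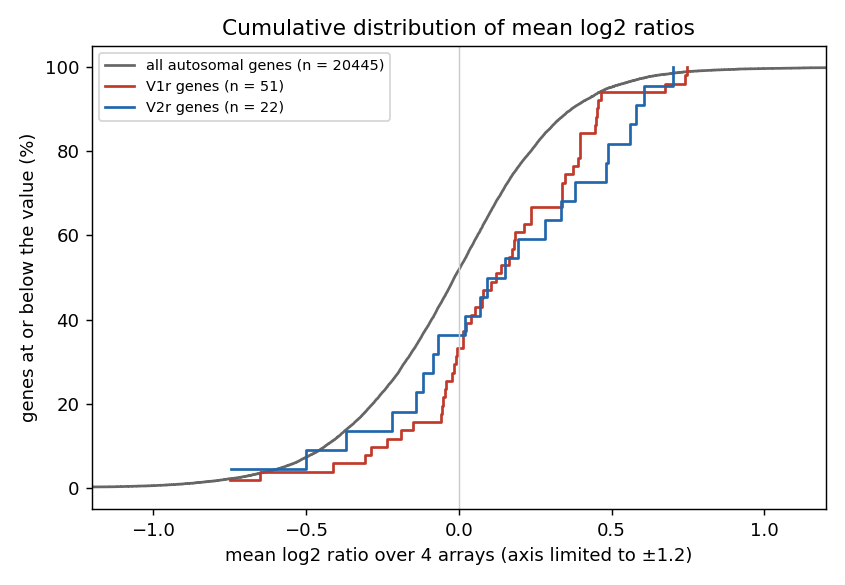
Cumulative share of genes (y axis, %) by mean log2 ratio over 4 arrays (x axis) for all 20445 autosomal genes, the 51 V1r genes and the 22 V2r genes. Both family curves lie to the right of the curve of all genes over the middle of the range and come close to it or cross it towards both ends.

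Depth on these arrays is signal over background. On the 4 arrays the scanner software flagged 84.3% to 89.9% of sample spots and 94.4% to 97.7% of pool spots as well above background, and it put the noise of every array outside its accepted range. Of the targeted genes, Map3k7, which encodes TAK1, gave 0.47, 0.68, 0.77 and 0.68 and Ripk3 -0.0019, -0.04, -0.12 and -0.14. Neither showed a loss, and Map3k7 was itself called higher, at 0.65 ± 0.13 (limma, adjusted p = 0.00192). The sources used here do not place the 2 probes of each gene relative to the deletions, so these probes do not check the labels. Among member probes 63 of 82 (76.8%) were well above background in both channels on all 4 arrays, against 82.0% of autosomal probes. Median signals were 704 in the samples and 737 in the pool for member probes, beside 769 and 789 for autosomal probes. Precision is limited by having 4 arrays.

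**Figure D2:**
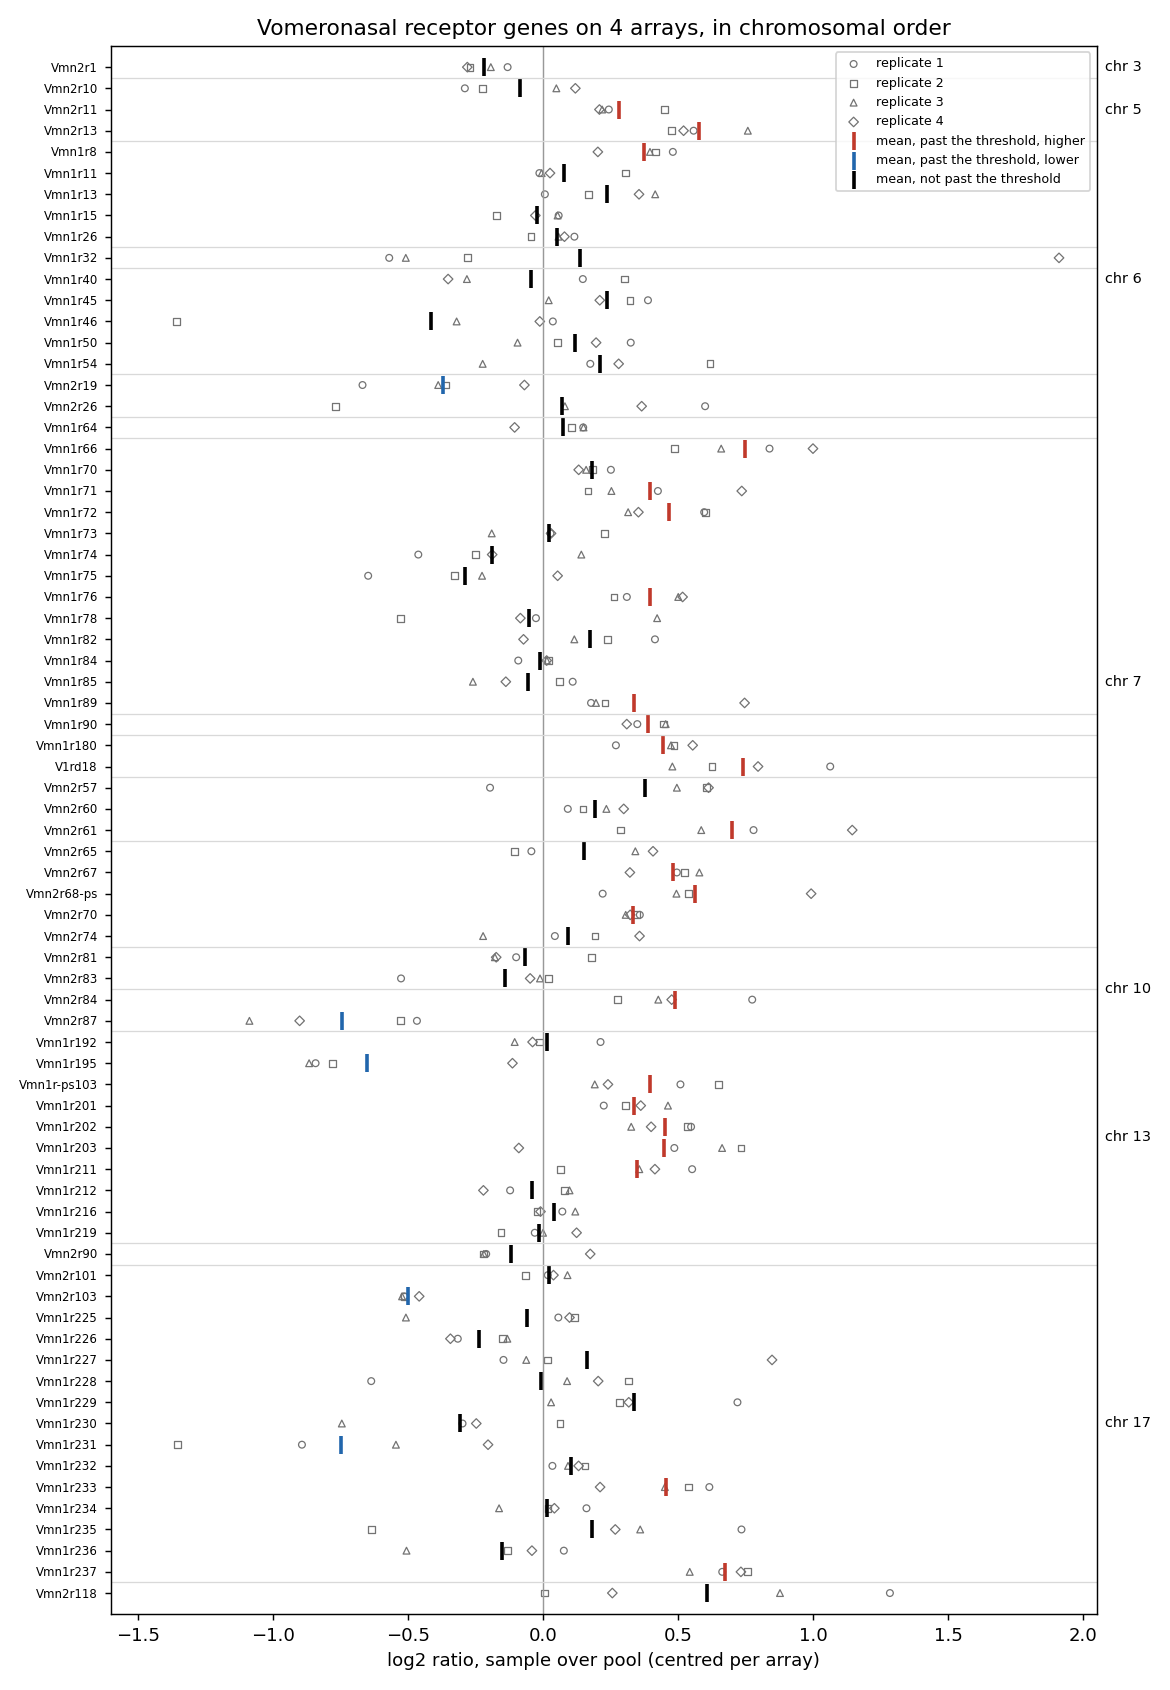
Log2 ratio of sample over pool (x axis, centred per array) of each of the 73 members (y axis, in chromosomal order). Open symbols are the 4 replicates, vertical bars their means, coloured where past the threshold, and grey lines divide clusters. Vmn2r103 and Vmn2r70 have nearly coinciding arrays, whereas Vmn1r32, dim in both channels, runs from -0.57 to 1.91.

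The V1r genes with the highest ratios lay on chromosomes 7 and 17. Vmn1r66, of the V1re group (chr7:10859559-10859618), gave 0.84, 0.49, 0.66 and 1.00 on replicates 1 to 4. Its mean was 0.75 ± 0.22 (SD, n = 4; limma, adjusted p = 0.00263). V1rd18, of the V1rd group (chr7:24788906-24788965), gave 1.06, 0.63, 0.48 and 0.80. These arrays averaged 0.74 ± 0.25 (limma, adjusted p = 0.00334). Both genes stayed well above 0 on every array, and neither lost its call when any replicate was left out. Vmn1r237, of the V1rf group (chr17:21450961-21451020), gave 0.66, 0.76, 0.54 and 0.73, a mean of 0.67 ± 0.10 (limma, adjusted p = 0.00149). The 3 means lie within the spread of one another, so their order is not established.

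By V1r group, the counts were small, and they stand beside 16.1% of all genes called higher and 19.3% lower. Higher members numbered 2 of 3 in V1rd, 3 of 5 in V1rh, 2 of 5 each in V1rf and V1ri and 1 of 2 in V1rj. The V1re group had 2 of 10, the V1rg group 2 of 8 and the V1rc group 1 of 6. All V1rh and V1ri genes lie on chromosome 13, where 32.8% of the other genes were called higher. None of 2 V1ra and 3 V1rb genes was called by limma, 1 of them, Vmn1r45, had an unadjusted p under 0.05, and 1, Vmn1r54, was called higher with normexp, at 0.26. Vmn1r70 and Vmn1r90 carry no group in the table of names. The lower V1r genes were 1 each of V1ri and V1re. V1rj receptors are known for responding to sulphated steroids of female urine. Of them Vmn1r89 gave 0.18, 0.23, 0.20 and 0.75 (limma, adjusted p = 0.0487) and lost its call without any one replicate, and Vmn1r85 had a mean of -0.06 ± 0.17.

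Members on 1 chromosome that lie within 1 Mb of the next were taken as 1 cluster, which gave 18 clusters, 6 of them with at least 5 members and 53 members in all. Chromosome 7 held 25 members, of which by limma 12 were higher and 0 lower (1, Vmn1r75, was below 0 at an unadjusted p under 0.05 and was called lower among probes well above background everywhere), while 20.1% of its other genes were higher. After subtracting the median of non-member probes within 5 Mb (the regional correction, with 14.9% of all genes called higher), 10 members of chromosome 7 were higher and 9 of the 12 kept their call. Chromosome 13 differed. Of its 10 members 5 were higher and 1 lower, but 32.8% of its other genes were higher as well, and after the regional correction 1 member was.

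**Figure D3:**
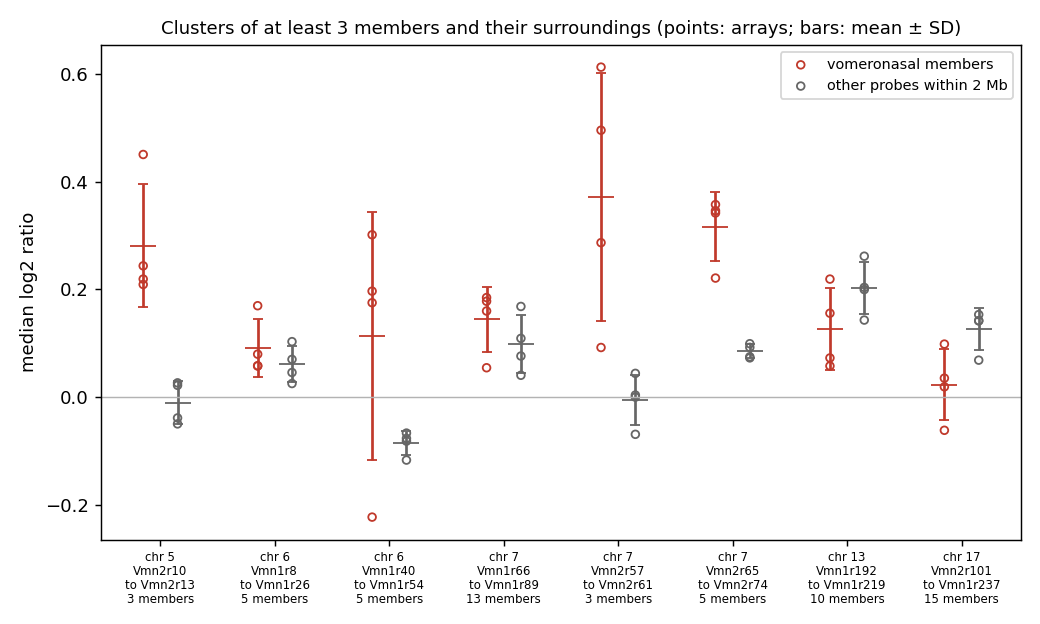
Median log2 ratio (y axis) of the members of each cluster of at least 3 genes (red). Grey shows the other probes inside the cluster or within 2 Mb of it. There is 1 point per array, with the mean ± SD as bars. Members stand above their surroundings on all 4 arrays on chromosome 5, in the 3 clusters of chromosome 7 and in the first of chromosome 6. The margin is small in the first of chromosome 6 and in the cluster from Vmn1r66 to Vmn1r89 on chromosome 7. Members stand below their surroundings on all 4 in the large cluster of chromosome 17.

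The longest cluster, at 2.95 Mb, is a V1r cluster on chromosome 7 from Vmn1r66 to Vmn1r89 with 13 members. Its V1re, V1rg and V1rj genes had 5 higher and 0 lower, and its members' median was 0.14 ± 0.06 against 0.10 ± 0.05 for 74 flanking probes. Flanking probes here are all non-member probes from 2 Mb before a cluster to 2 Mb past it, so they include those inside it. In this cluster 50 of the 74 lay inside, with a median of 0.03 ± 0.01. Vmn1r66 was the highest there and Vmn1r75 the lowest, at -0.65, -0.33, -0.23 and 0.05. That mean, -0.29 ± 0.29, did not pass the threshold (limma, adjusted p = 0.0886), but did so without replicate 4, at -0.40, and among probes well above background everywhere, at -0.30. Levels differed along the cluster. Vmn1r75 and Vmn1r76 lie 49.1 kb apart, and Vmn1r76 was the higher by 0.68 on average and on all 4 arrays. Further along chromosome 7, Vmn1r90 stood alone at 0.35, 0.45, 0.45 and 0.31, a mean of 0.39 ± 0.07, with 0.01 ± 0.06 in its 73 flanking probes, and missed the size limit with normexp, at 0.20. Vmn1r180 and V1rd18 form a pair 50.7 kb apart. Their median was 0.59 ± 0.10 against -0.04 ± 0.03 for 112 flanking probes, and every array had both genes above 0.2.

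The V1ra and V1rb genes lie together on chromosome 6, in a region whose engineered deletion is known to alter sexual and aggressive behaviour of mice. Vmn1r45 was the highest of those well above background, at 0.39, 0.32, 0.02 and 0.21, a mean of 0.24 ± 0.16 (limma, adjusted p = 0.0559). It passed the threshold after the regional correction, at 0.31, and without replicate 3, also at 0.31. Vmn1r40, the lowest, gave 0.15, 0.30, -0.28 and -0.35, so that its slides took opposite signs. Its mean of -0.05 ± 0.32 turned positive after the regional correction, without replicate 3 and without replicate 4. The members' median in this cluster was 0.11 ± 0.23 and that of 157 flanking probes -0.09 ± 0.02. In the V1rc cluster of the same chromosome, Vmn1r8 gave 0.48, 0.42, 0.40 and 0.20, a mean of 0.37 ± 0.12 (limma, adjusted p = 0.00861), and fell short with the normexp background correction, at 0.20. The other 4 members there were not called. The members' median in the V1rc cluster was 0.09 ± 0.05 and that of 106 flanking probes 0.06 ± 0.03. The 27 of these 106 that lie inside the cluster had a median of 0.14 ± 0.05. Vmn1r15, at 0.06, -0.17, 0.05 and -0.03, was the lowest and did not differ from 0 beyond its spread, and its sign turned without replicate 2 and in the deposited log2 table.

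On chromosome 13, 10 V1rh and V1ri genes lie within 0.976 Mb. Vmn1r202 was the highest, at 0.55, 0.54, 0.33 and 0.40, a mean of 0.45 ± 0.11 (limma, adjusted p = 0.00428). After the regional correction it lay at 0.25 and was the only called-higher member of this chromosome to keep its call, though with normexp it lay at 0.23, short of the size limit. Vmn1r195 (chr13:22370958-22371017) was the lowest, at -0.84, -0.78, -0.87 and -0.11, with replicate 4 apart from the others. Its mean was -0.65 ± 0.36 (limma, adjusted p = 0.0115), and it stayed lower after the regional correction, at -0.84. The members' median was 0.13 ± 0.08 and that of 171 flanking probes 0.20 ± 0.05. The 26 of these 171 that lie inside the cluster had a median of 0.32 ± 0.05. The members' median turned to -0.08 after the regional correction, so relative to its surroundings this cluster was not high.

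The cluster of chromosome 17, from Vmn2r101 to Vmn1r237, joins 13 V1r and 2 V2r genes over 1.73 Mb. It had 2 higher and 2 lower members, while 12.7% of the other genes of chromosome 17 were called higher and 23.4% lower. The cluster's members had a median of 0.02 ± 0.07, below its 75 flanking probes at 0.13 ± 0.04 on all 4 arrays. The sign of that median is not established. Its measured means ran from -0.75, at the dim Vmn1r231, to 0.67 at Vmn1r237. The V1re genes Vmn1r229, Vmn1r230 and Vmn1r231, each within 50 kb of the next, had means of 0.34 ± 0.29, -0.31 ± 0.33 and -0.75 ± 0.49. Vmn1r229 and Vmn1r230 were not called by limma, though both passed the threshold among probes well above background everywhere. Vmn1r229 lay above Vmn1r230 on all 4 arrays. Vmn1r230 lay above Vmn1r231 on 2 of 4, so the order of that pair is not established. The V1rf genes Vmn1r236 and Vmn1r237 lie 27.2 kb apart at -0.15 and 0.67, a difference of 0.82 ± 0.19 with Vmn1r237 above on all 4 arrays.

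Of V2r genes, the clearest contrast was between the neighbours Vmn2r84 and Vmn2r87, 108 kb apart on chromosome 10. Vmn2r84 (chr10:129824765-129824824) gave 0.77, 0.28, 0.43 and 0.48, a mean of 0.49 ± 0.21 (limma, adjusted p = 0.00821). Vmn2r87 (chr10:129932990-129933049) gave -0.47, -0.53, -1.09 and -0.90, a mean of -0.75 ± 0.30 (limma, adjusted p = 0.00458). No array of one gene overlapped an array of the other, and the difference was 1.23 ± 0.31. In signal, Vmn2r84 had 1547, 1188, 1294 and 1474 units in the samples against 918, 1011, 964 and 1052 in the pool. Vmn2r87 had 732, 783, 515 and 647 units against 1027, 1162, 1094 and 1198. Both probes were well above background on all arrays, are 60 nt long and have a GC content of 35%, and their 113 flanking probes lay at 0.03 ± 0.04.

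Among the other lower V2r genes Vmn2r103 (chr17:19939760-19939819) was the steadiest, at -0.51, -0.51, -0.52 and -0.46. Its mean was -0.50 ± 0.03 (limma, adjusted p = 0.00221). Vmn2r101, 223 kb away, had 0.02 ± 0.06, and the difference between them, 0.52 ± 0.07, had 1 sign on all arrays. With the normexp background correction Vmn2r103 lay at -0.24 and missed the size limit. Vmn2r19 on chromosome 6 gave -0.67, -0.36, -0.39 and -0.07, a mean of -0.37 ± 0.24 (limma, adjusted p = 0.0285). Its sample signal was well above background on 3 of 4 arrays, and the call was lost without replicate 1, 2 or 3, with normexp and with slide means as 2 samples.

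The higher V2r genes lay on chromosomes 5, 7 and 10. Vmn2r13 (chr5:109600534-109600593) gave 0.56, 0.48, 0.76 and 0.52, a mean of 0.58 ± 0.12 (limma, adjusted p = 0.00251), and its neighbour Vmn2r11 had 0.28 ± 0.11 (limma, adjusted p = 0.0215) but lost its call without replicate 1, 2 or 3, with normexp and after the GC correction. Their cluster had a median of 0.28 ± 0.11 against -0.01 ± 0.04 in 135 flanking probes. On chromosome 7, 3 of the 5 genes from Vmn2r65 to Vmn2r74 were higher. Vmn2r68-ps (chr7:92382577-92382636) gave 0.22, 0.54, 0.49 and 0.99, a mean of 0.56 ± 0.32 (limma, adjusted p = 0.0139). Vmn2r70 was steadier, at 0.36, 0.35, 0.31 and 0.32, though it missed the size limit with normexp and after the regional correction. Vmn2r67, with 2 probes at 0.42 ± 0.10 and 0.54 ± 0.32, was higher with both. The lowest of this cluster was Vmn2r74, at 0.04, 0.19, -0.22 and 0.36, whose mean of 0.09 ± 0.25 did not differ from 0 beyond its spread and lay at -0.03 after the regional correction. The cluster's median was 0.32 ± 0.06 and that of 95 flanking probes 0.08 ± 0.01. The 15 of these 95 that lie inside the cluster had a median of 0.01 ± 0.10.

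Family C of the V2r genes is known for being expressed broadly across basal neurons beside another V2r. Its member Vmn2r1, on chromosome 3, had 3 probes and a mean of -0.22 ± 0.07, short of the size limit. One probe, at -0.54 ± 0.17, was well above background in the samples on 2 of 4 arrays and carried most of it, since the other two gave -0.03 ± 0.16 and -0.08 ± 0.13. Vmn2r1 was called lower in the deposited log2 table, at -0.27, and after the GC correction, at -0.26. Vmn2r26, a receptor known for sensing peptides, gave 0.60, -0.77, 0.08 and 0.37 with a sample signal well above background on 2 of 4 arrays. No level can be read from it.

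Dim probes set a limit on several members. For 15 of the 73 no probe was well above background in both channels on all 4 arrays, and 4 of the 28 calls included such a probe. The pool signals of Vmn1r231 (chr17:21027550-21027609) were 356, 310, 311 and 266 and well above background on all 4 arrays, while the sample signals of 189, 118, 213 and 233 were not on any. Its measured ratios were -0.89, -1.35, -0.54 and -0.20, a mean of -0.75 ± 0.49 (limma, adjusted p = 0.0176), but the size is not measured. When the sample channel is placed, array by array, at the dimmest signal that still counted as well above background, or at its own value where that is higher, it was at least 1.09-fold lower than the pool. This bound is open to dye bias. The call was lost without replicate 1, with normexp and in the deposited log2 table. Vmn1r46, at 0.04, -1.36, -0.32 and -0.01, was dim in the samples in the same way, was not called, and allows no fold. It turned to 0.02 with normexp.

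Vmn2r61 was called higher, at 0.78, 0.29, 0.59 and 1.15, but its sample signal was not well above background on any array and its pool signal was on 2 arrays. No rise is established for it. Vmn1r203, also called higher, was well above background on 3 of 4 arrays in each channel, gave -0.09 on replicate 4 against 0.49, 0.73 and 0.66, and lost its call without replicate 1, 2 or 3. Vmn1r32, Vmn2r83 and Vmn2r118 were not well above background in either channel on any array. Vmn2r118 gave 1.28, 0.01, 0.88 and 0.26 from sample signals of 167, 138, 131 and 118 and pool signals of 70, 142, 72 and 98, so its ratio measures no copy level. The probes of Vmn2r118 and Vmn2r83, with a GC content of 20% and 21.7%, stood at the low end of the family. Among the 56 members whose probes were all well above background 21 (37.5%) were higher and 3 lower, and among the 17 with a dim probe 2 were higher and 2 lower. The first group was picked through its signals, so its share is no support for the count over all 73. The nearest background keeps only probes well above background everywhere, which leaves 58 members. Under it 18.3% of 18716 genes were called higher and 21.1% lower.

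**Figure D4:**
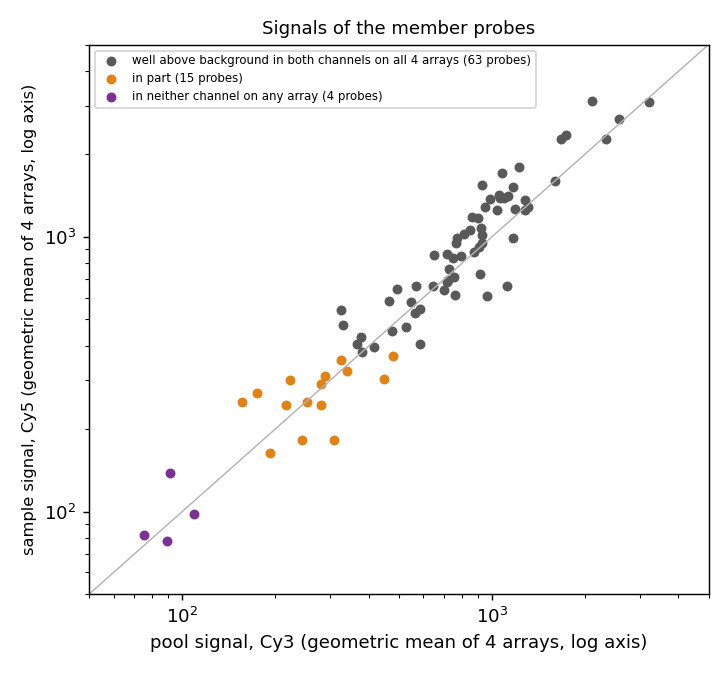
Sample signal (Cy5, y axis, log scale) against pool signal (Cy3, x axis, log scale) of the 82 member probes, each as a geometric mean of 4 arrays. The line marks equal signals, and colours show whether a probe was well above background in both channels on all 4 arrays (63 probes), in part (15) or in neither channel on any array (4).

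Adjacent members of a cluster were compared in level. Of 55 neighbouring pairs, a median of 101 kb apart, 9 were both higher, 0 both lower and 2 were called in opposite directions. The latter were Vmn2r84 with Vmn2r87, and Vmn1r195 with Vmn1r-ps103, which lies 162 kb away at 0.51, 0.65, 0.19 and 0.24 and lost its call without replicate 1 or 2 and after the regional correction. The median absolute difference between neighbours was 0.30, and 25 pairs kept 1 order on all arrays. Over all 73 members the mean ratio had an SD of 0.33. Neighbours were not compared with members taken at random or with other adjacent genes. These figures are therefore not shown to be particular to neighbours. Probes inside 1 gene differed by as much as neighbours did. The 3 probes of Vmn1r70, a V1r gene of chromosome 7, start within 513 nt and had means of -0.04 ± 0.15, 0.14 ± 0.05 and 0.45 ± 0.18, in this order on all 4 arrays and all well above background. Those at the ends differed by 0.49 ± 0.31. The average for the gene, 0.18 ± 0.05, was not called (limma, adjusted p = 0.0544). With 1 probe, a gene's copy level cannot be told apart from the behaviour of that probe.

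Since the families grew by duplication, probes of like sequence were looked for among the 3309 pairs of member probes of different genes, aligned without gaps on both strands. The median pair matched at 22 nt, and 5 pairs at 35 nt or more. The closest pairs are printed with the mismatching bases of the aligned stretch in capitals, and the Vmn1r202 probe is given as its reverse complement.
Vmn1r216: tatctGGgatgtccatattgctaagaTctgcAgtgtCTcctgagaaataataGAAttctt
Vmn1r202: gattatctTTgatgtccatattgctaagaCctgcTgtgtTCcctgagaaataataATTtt
V1rd18: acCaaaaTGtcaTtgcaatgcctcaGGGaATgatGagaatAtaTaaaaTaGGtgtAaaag
Vmn1r180: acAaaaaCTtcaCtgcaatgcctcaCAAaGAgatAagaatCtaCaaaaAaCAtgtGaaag
The first pair matched at 48 of 57 aligned nt, and the genes lie in the same cluster of chromosome 13. Vmn1r216 gave 0.07, -0.02, 0.12 and -0.01 and Vmn1r202 the higher values above, a difference of 0.41 ± 0.15 with no overlap of arrays. The second pair matched at 44 of 60 nt and both genes were called higher, V1rd18 by 0.30 ± 0.35 more than Vmn1r180, within the spread between arrays. Whether DNA of one gene binds the probe of the other was not tested.

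Base composition was compared because the member probes were lower in GC. Over 82 member probes the ratio correlated with GC content at -0.14, and over all autosomal probes at -0.13, given as descriptions across probes that share arrays and pool. In each GC class the median of member probes lay above that of other probes. The medians were 0.15 against 0.04 for probes at 30% or less and 0.17 against 0.05 up to 34%. In the class over 34% to 38%, which holds 35 member probes, the medians were 0.05 and 0.02. The 11 probes over 38% to 42% had 0.07 against -0.05, and the 2 probes over 42% had 0.11 against -0.27. With each array corrected by probe GC content 23 members were higher, of which 21 had been called before, with 15.8% of all genes called higher. Replicates 3 and 4 were also set against replicates 1 and 2. No member differed between slides by limma at an adjusted p under 0.05, and the lowest was 0.439. At an unadjusted p under 0.05, 6 members (8.22%) differed, against 10.8% of all genes, and 0 of all 20445 genes passed after adjustment. Each slide held different samples, so slide and sample cannot be told apart. Among them Vmn1r40 was higher on slide 1 by 0.54. Vmn1r231 was also among them, but its dim sample signal allows no size for the difference.

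Other genes of the vomeronasal system were taken from 5 lists, and their counts stand against the same background of 16.1% higher and 19.3% lower. Of 25 measured genes of signal transduction 1 was higher and 6 lower, with a median of 0.01. Rtp1, a chaperone that brings chemosensory receptors to the cell surface, gave -1.49, -0.76, -0.61 and -0.55, but lay at -0.01 with normexp and lost its call there. Adrbk2, the receptor kinase GRK3, had -0.55 ± 0.08 over 5 probes and Gng13, a G protein gamma subunit, -0.52 ± 0.18. The G proteins of the families, Gnai2 at -0.17 and Gnao1 at 0.29, were not called. Trpc2, the channel that carries the sensory current, was not analysed here.

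The vomeronasal formyl peptide receptors had 1 higher and 0 lower by limma of 5 measured (1 was below 0 at an unadjusted p under 0.05) and a median of -0.08. The higher one was Fpr-rs3, at 0.52, 0.68, 0.75 and 0.45. The H2-Mv molecules, class Ib MHC proteins made with V2r receptors, had 2 higher and 0 lower of 6 by limma (0 below 0 at an unadjusted p under 0.05) and a median of 0.22. H2-M10.1 reached 1.11, 1.11, 0.98 and 0.80 (limma, adjusted p = 0.00087) on 1 probe, and H2-M1 had 0.32 ± 0.16 and lost its call with normexp, with slide means and without replicate 1, 2 or 4. Of the pheromone ligands only Lcn3 and Lcn4 were measured. Lcn3, a lipocalin of vomeronasal glands, had -0.43 ± 0.23 and lost its call with normexp, the GC and the regional corrections and without replicate 1 or 4. Of 19 genes of vomeronasal neuron development and wiring 3 were higher and 6 lower, with a median of -0.02. Lrrc3b had 0.66 ± 0.16 and Cbln1 0.59 ± 0.23. Sema3f, an axon guidance signal, had -0.67 ± 0.41 but -0.07 with normexp and -0.05 among probes well above background everywhere, and it lost its call without replicate 1, 2 or 3.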

How the data were processed

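The deposited intensity values are spot signals from Agilent Feature Extraction 10.10.1.1, background-subtracted, detrended and dye-normalised, per the file headers, and hold surrogates where spots were dim. The log10 ratio column, also deposited, served as a check only. The deposited flags of the scanner software gave the spots well above background. A deposited log2 table, whose within-array normalisation is unknown, served as an alternative. Its columns had medians of -0.035, 0.029, 0.052 and 0.005, and it correlated with the same array's ratios at 0.91 to 0.92. Here the log2 ratio of processed Cy5 over Cy3 was averaged over spots without outlier flags and centred per array on the median of autosomal probes. A gene's value is the mean of its probes. The test was limma 3.58.1 (R 4.3.3, lmFit and eBayes), checked on simulated data. For 4 arrays an exact sign-flip test cannot give a p below 0.125.

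The members and lists were chosen with earlier results of these data known. Named genes are the 6 highest and 6 lowest called members with 1 sign and a probe well above background, of which 3 lower ones exist, the extremes of clusters of at least 5, members dim in 1 channel, and up to 3 genes per list. The other members named were chosen after their values were seen. Alternatives were normexp, the deposited log2 table, centring on the mode, a dim-probe filter, GC and regional corrections, medians over probes, outlier spots kept, slides as a random block or as means, and each replicate left out.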

Additional observations from a re-analysis of the deposited data

Results flagged for a closer look

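For 13 members and 1 cluster median, 1 array stood apart from the other three by Dixon's test at the 95% level. The test was made on 82 groups of 4 arrays, and chance alone marks about 1 in 20 of such groups. Replicate 4 stood high at Vmn1r32 (1.91, dim in both channels), Vmn1r89 (0.75), Vmn1r195 (-0.11), Vmn1r227 (0.85), Vmn2r90 (0.18) and Vmn2r103 (-0.46), and low at Vmn1r64 (-0.10). Replicate 1 stood low at Vmn1r84 (-0.09), Vmn2r57 (-0.20), Vmn2r83 (-0.53, dim in both channels) and in the median of the cluster from Vmn2r65 to Vmn2r74 (0.22, with the others at 0.34 to 0.36). Replicate 2 stood high at Vmn2r11 (0.45) and Vmn1r11 (0.31), and replicate 3 low at Vmn1r225 (-0.51). Of the 28 called members, Vmn2r11, Vmn1r89, Vmn1r195 and Vmn2r103 are among these.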

How the results depend on the processing

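The count of higher members was 6 at a size limit of 0.5 (4.63% of all genes), 19 to 21 with 1 replicate left out and 20 to 25 under the other alternatives. The members counted were not always the same. With normexp they included Vmn1r32, Vmn2r83 and Vmn2r118, which were dim in both channels. Vmn2r118 was also counted in the deposited log2 table and after the regional correction. The count of lower members was 3 with normexp, 3 to 7 with 1 replicate left out (3 without replicate 1) and 4 to 6 otherwise. The dim-probe filter leaves 58 members. Of all genes, 12.2% were higher and 17.3% lower with normexp, and 16% and 21.1% in the deposited table. The dim-probe filter gave 18.3% and 21.1%, the GC correction 15.8% and 16.8%, and the regional correction 14.9% and 16.1%. Such shares are not given here for runs with 1 replicate left out. The V1r median was 0.183 in the deposited log2 table and 0.092 after the regional correction. Of the 23 higher calls 13 were kept with normexp and 16 after the regional correction, and 17 in every run with 1 replicate left out. Signs turned for the median of the chromosome 13 cluster (-0.0835 after the regional correction), Vmn1r15 (0.0323 in the deposited table and -0.0488 to 0.0283 with 1 replicate left out), Vmn1r40 (0.0234 after the regional correction and -0.1614 to 0.0561 with 1 replicate left out), Vmn2r74 (-0.0257 after the regional correction) and Vmn1r46 (0.0161 with normexp). None of these was called. The chromosome 17 cluster median, 0.0228, also fell below 0 in the deposited table (-0.0023), centred on the mode (-0.0052), with the dim-probe filter (-0.0029), after the GC correction (-0.0045) and without replicate 4 (-0.0024), moves smaller than its SD over arrays. Fewer arrays widen the error of a run with 1 left out, and for the other changes the cause was not tested. No paired analysis was possible because there is only 1 group. Signal over background limits 15 of 73 members.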
